A study of Mus musculus with 2 samples.

Results

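The genes described here are 34 mouse genes of cholesterol and fatty acid synthesis, found by their symbols among the 31053 genes listed for each library. Of these, 19 form a sterol branch, which runs from the mevalonate pathway to cholesterol, and 15 form a fatty acid branch. All 34 symbols were present, and each was followed through the cell types of the pancreatic islet. Single cells were sequenced from islets of C57BL/6J mice, 13 weeks old in both groups. A first library came from animals fed a high-fat diet (HFD) and a second from animals labelled CD, an abbreviation that the labels leave unexplained. The labels name no allele or drug for either group and do not say how many mice were pooled. With 1 library per diet no difference between the diets can be tested, and each one given below describes this pair of libraries. Intervals are exact 95% intervals and cover counting error only.

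Cells build cholesterol from acetyl-CoA through mevalonate, farnesyl diphosphate, squalene and lanosterol, and build fatty acids from the same acetyl-CoA through malonyl-CoA. The transcription factor SREBP-2 is known for switching on the sterol genes when membrane cholesterol is low, and INSIG1 holds the SREBP precursors in the endoplasmic reticulum when it is high. SREBP-1c and ChREBP, the products of Srebf1 and Mlxipl, are the corresponding regulators of the fatty acid genes, driven by insulin and by glucose. In β cells these lipids enter the plasma membrane and the insulin granule membrane.

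SREBP binds sterol regulatory elements in promoters, and at sterol genes it is known to act together with NF-Y, which recognises the CCAAT box. Promoter windows of 300 bases (250 before and 50 after the start site) were available from RefSeq on GRCm38.p6 for 27 of the 34 members. A sterol element was searched for as TCACNCCAC and a CCAAT box as CCAAT, both on both strands. CCAAT occurred in at least 1 window of all 15 sterol members with a window and of 8 of 12 such fatty acid members, against 41.1% of 27025 genes. TCACNCCAC occurred at Hmgcs1 and Mlxipl, against 1.44% of genes. The Mlxipl match lies in the window at chr5:135106641-135106940. Its window at chr5:135089640-135089939, which holds the annotated start of the gene, has no such match. The windows of 4 of the 5 sterol members that correlated most with the rest of their branch across β cells in both libraries are shown with the matches in capitals, where ATTGG is CCAAT read on the other strand. Hmgcs1, at chr13:119690101-119690400 on the plus strand, holds both motifs, and its sterol element begins 137 bases before the start site. The windows of Insig1 (chr5:28071162-28071461, plus strand), Msmo1 (chr8:64733529-64733828, minus strand) and Idi1 (chr13:8885356-8885655, plus strand) hold CCAAT alone. A match describes the letters of the window and does not show that a factor binds there.
Hmgcs1: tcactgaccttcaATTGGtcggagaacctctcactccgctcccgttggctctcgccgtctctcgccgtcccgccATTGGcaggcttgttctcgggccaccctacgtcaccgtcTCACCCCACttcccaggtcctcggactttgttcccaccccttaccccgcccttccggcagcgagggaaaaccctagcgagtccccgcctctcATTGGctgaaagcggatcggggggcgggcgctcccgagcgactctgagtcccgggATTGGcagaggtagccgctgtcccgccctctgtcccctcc
Insig1: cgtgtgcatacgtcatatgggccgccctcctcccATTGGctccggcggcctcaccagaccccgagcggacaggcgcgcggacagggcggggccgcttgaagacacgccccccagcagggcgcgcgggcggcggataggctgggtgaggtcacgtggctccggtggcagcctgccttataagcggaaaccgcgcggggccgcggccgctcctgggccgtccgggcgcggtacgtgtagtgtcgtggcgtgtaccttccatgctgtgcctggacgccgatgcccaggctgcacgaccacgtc
Msmo1: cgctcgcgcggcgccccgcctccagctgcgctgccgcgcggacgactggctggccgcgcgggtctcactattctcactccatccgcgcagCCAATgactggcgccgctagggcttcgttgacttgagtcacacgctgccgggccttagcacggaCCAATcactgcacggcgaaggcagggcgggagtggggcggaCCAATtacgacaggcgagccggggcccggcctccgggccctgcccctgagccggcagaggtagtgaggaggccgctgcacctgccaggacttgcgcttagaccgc
Idi1: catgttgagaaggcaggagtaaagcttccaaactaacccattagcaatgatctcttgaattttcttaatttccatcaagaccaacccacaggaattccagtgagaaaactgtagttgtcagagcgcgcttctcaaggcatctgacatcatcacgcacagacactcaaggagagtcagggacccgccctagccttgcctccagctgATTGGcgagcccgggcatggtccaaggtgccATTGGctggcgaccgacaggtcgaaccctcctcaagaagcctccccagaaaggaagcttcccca

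The HFD library held 271527648 unique molecular identifiers (UMIs, each standing for 1 captured RNA molecule) and 12062 cells, with a median of 17673 UMIs per cell. The CD library held 265836346 UMIs and 9667 cells, with a median of 21895. Cells were sorted into classes by the share of their UMIs on islet hormones, which gave 7433 HFD and 6515 CD β cells, 2005 and 1272 α cells, 662 and 570 δ cells, and 535 and 328 PP cells. In addition, 143 HFD and 144 CD cells passed more than 1 threshold and were left out, and between 44 and 70 cells per class and library lay within 10% of their threshold. The libraries shared 26 cell barcodes. Levels are counts per 1000000 (CPM) of the UMIs that lie outside 7 hormone genes and the 13 mitochondrially encoded genes. Insulin took 62.2% of the UMIs of HFD β cells and 61.1% of those of CD β cells. The median mitochondrial share was 4.20% in HFD cells and 2.76% in CD cells. Summed endothelial markers stood at 152 CPM in HFD β cells and 55.6 CPM in CD β cells, erythroid markers at 166 and 45.5 CPM, macrophage markers at 201 and 121 CPM, mesenchymal markers at 59.0 and 17.8 CPM, and acinar markers at 38.1 and 130 CPM. Summed α markers were at 6528 CPM in HFD β cells and 3496 CPM in CD β cells, and β cells' own markers at 7468 and 5263 CPM. The part of these markers in the differences below was not tested.

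On this scale both branches were most abundant in β cells. The sterol sum was 1092 CPM in HFD β cells, against 344 CPM in α, 426 CPM in δ and 481 CPM in PP cells of the same library. In CD it was 847 CPM in β cells, against 360, 542 and 454 CPM in α, δ and PP cells. The fatty acid sum was 1405 CPM in HFD β cells and 405, 874 and 433 CPM in HFD α, δ and PP cells, and it was 1227 CPM in CD β cells and 322, 631 and 419 CPM in CD α, δ and PP cells. In both libraries β cells were the highest of these 4 classes for 16 of 19 sterol and 11 of 15 fatty acid members, but with levels per 1000000 of all UMIs, insulin included, this held for 0 and 0. As UMIs per cell it held for 17 and 13. Between α, δ and PP cells the order of the sterol sum differed between the libraries.

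**Figure D1:**
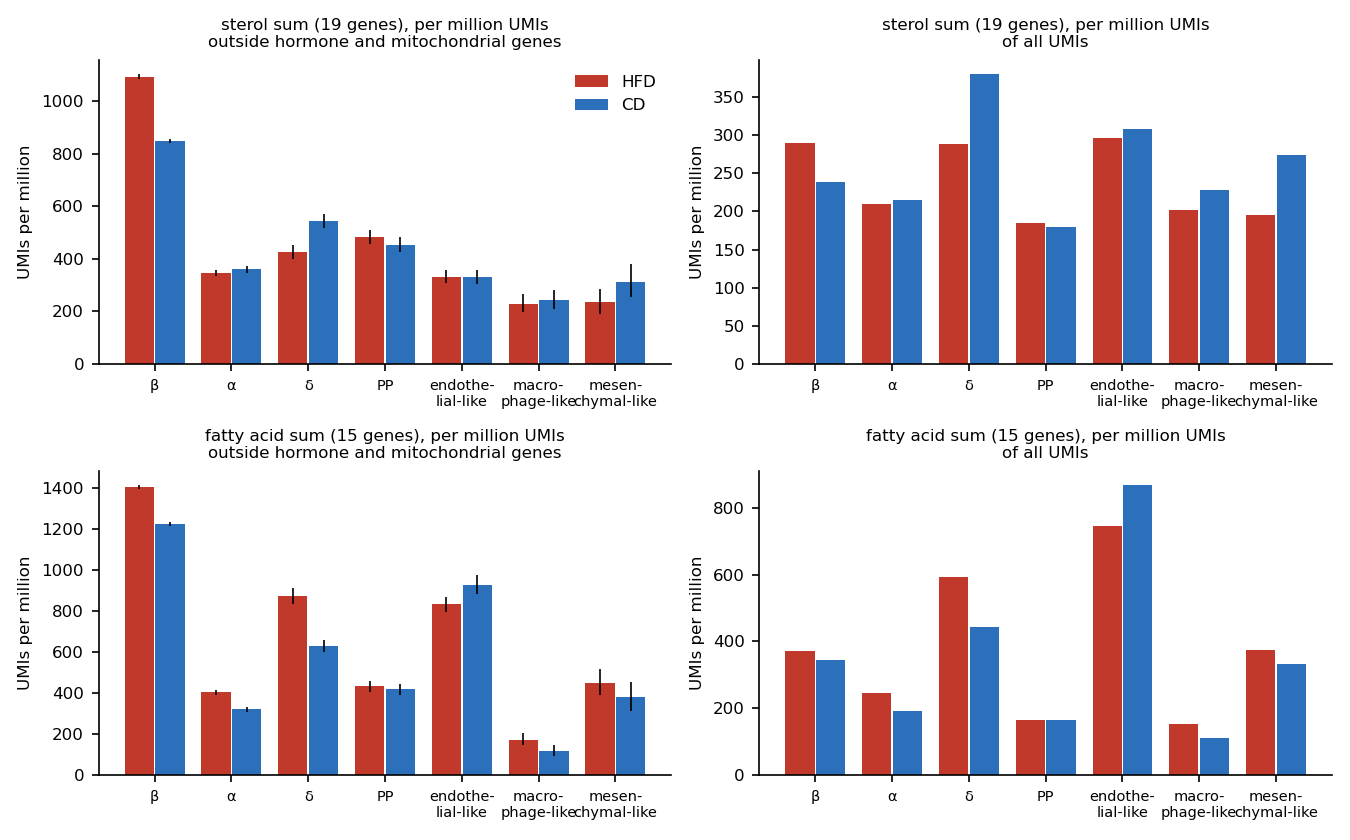
Summed level of the 19 sterol members (top) and the 15 fatty acid members (bottom) in 7 cell classes, with HFD as the left and CD as the right bar of each pair. The left panels give CPM outside hormone and mitochondrial genes with 95% counting intervals, and the right panels give UMIs per 1000000 of all UMIs; β cells are highest of the endocrine classes in the left panels (sterol 1092 in HFD and 847 in CD) and stand level with or below δ cells in the right ones (sterol 289 in β against 289 in δ cells of HFD, 239 against 380 in CD).

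In the sterol branch the widest ratios of β over α cells were those of Insig1, Msmo1 and Sqle. Insig1, the sterol sensor partner, was at 165 CPM in β and 23.6 CPM in α cells of the HFD library, and at 105.5 and 21.7 CPM in those of CD. Msmo1, which removes methyl groups from the lanosterol-derived intermediate, was at 179 and 31.0 CPM in HFD and at 122 and 33.0 CPM in CD. Sqle, which makes the epoxide that is cyclised to lanosterol, was at 143 and 26.1 CPM in HFD and at 118 and 24.2 CPM in CD. These 3 genes had intervals in β cells that lay clear of those of every other endocrine class, as did those of Hmgcs1, Idi1, Fdps, Lss and Cyp51. In the fatty acid branch the same held for Acly, Elovl5, Elovl6, Fads1, Srebf1, Mlxipl and Acsl4. Mlxipl, the gene of the glucose-responsive factor ChREBP, was at 316.5 CPM in β, 31.1 CPM in α, 196 CPM in δ and 61.9 CPM in PP cells of HFD, and at 321 CPM in β, 33.5 CPM in α, 144 CPM in δ and 53.5 CPM in PP cells of CD.

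Several members stood apart from that pattern. Me1, malic enzyme, which supplies NADPH, was highest in PP cells in both libraries, with 35.6 CPM in HFD and 43.0 CPM in CD, against 15.9 and 18.5 CPM in β cells. Pmvk, phosphomevalonate kinase, was highest in δ cells, with 63.5 CPM in HFD and 66.1 CPM in CD, but those intervals overlapped the next class. Scd1 and Fads2, a stearoyl-CoA and a Δ6 fatty acid desaturase, were nearly absent, with 29 and 22 UMIs over all HFD β cells and 15 and 18 UMIs over all CD β cells. Thrsp, a lipogenic protein of unsettled mechanism, was highest in endothelial-like cells. It reached 524 CPM in the 528 HFD endothelial-like cells and 669 CPM in the 342 CD ones, while no endocrine class exceeded 6.13 CPM in HFD or 3.79 CPM in CD. Stard4, a carrier of cholesterol between membranes, was also highest in endothelial-like cells, with 52.1 CPM in HFD and 31.0 CPM in CD, against 18.0 and 14.1 CPM in β cells.

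Free RNA from lysed cells enters the droplets and can add to these values. From hormones foreign to each class it made up an estimated 19.6% of UMIs in HFD β cells and 17.5% in CD β cells, and 8.17% and 7.37% in α cells. These are medians over the foreign hormones, whose single estimates ran over 13.2 to 41.6% in HFD β cells and 13.4 to 42.9% in CD β cells, and over 6.71 to 29.3% in HFD and 5.36 to 84.0% in CD α cells, so the levels expected from free RNA below are rough. For most members the level expected from it was well under the measured one, for example 38.1 CPM of 165 CPM for Insig1 in HFD β cells and 21.0 of 105.5 CPM in CD. Scd2, a stearoyl-CoA desaturase, was expected at 104 CPM in HFD and 83.6 CPM in CD from free RNA alone, above its measured 61.4 and 36.1 CPM in β cells. Acsl3, an acyl-CoA synthetase, was expected at 11.9 and 13.9 CPM and measured at 13.1 and 12.9 CPM in HFD and CD β cells, and Thrsp was expected at 5.04 and 4.62 CPM and measured at 6.13 and 3.15 CPM. An expected level above the measured one means that the estimate is too high for that gene, as for Scd2. By this estimate the β cell levels of these 3 genes, like those of Scd1, cannot be told apart from free RNA. With the estimate subtracted, β cells stayed highest of the 4 classes for 13 sterol and 8 fatty acid members.

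Between the diets, the sterol branch of β cells was higher in HFD almost throughout. The sum was 1.29 times as high (1.27 to 1.30), and all 19 members had a ratio of HFD over CD above 1, 18 of them with an interval clear of 1. Over all 13974 genes measured in β cells, 54.5% had a ratio above 1, and 5267 genes had an interval above 1. Per 1000000 of all UMIs, Ebp (14.9 in HFD and 15.7 in CD) and Pmvk (14.2 and 14.3) were lower in HFD. A gene was counted as past the fold at a log2 ratio of at least 0.32 in either direction, with at least 50 UMIs over both libraries. By this rule 11 of 19 sterol members were higher and 0 lower, where 21.5% of all 13974 genes measured in β cells were higher and 14.2% lower. The median log2 ratio was 0.35 for the sterol members and 0.04 for all genes. The background depends on the scale, with 16% of genes higher and 20.8% lower per 1000000 of all UMIs, and 18.3% higher and 17.6% lower with TMM factors. On all UMIs 7 sterol members were past the fold. With a fold of 1.5 there were 3, where 1341 of all 13974 genes were higher.

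**Figure D2:**
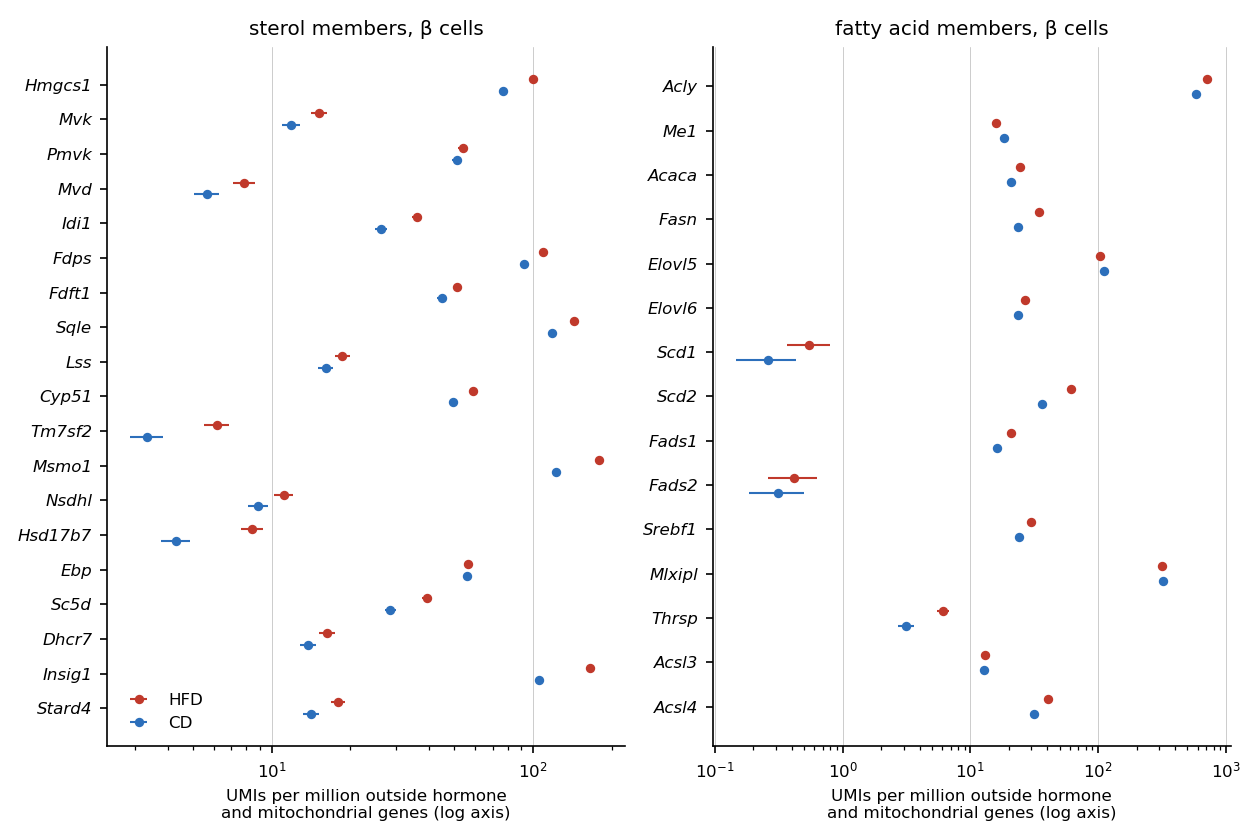
Level of each sterol (left) and fatty acid (right) member in β cells, in CPM on a log axis, with HFD above CD in each row and 95% counting intervals. The HFD point lies to the right of the CD point for all 19 sterol members, and for 12 of the 15 fatty acid members, with Me1, Elovl5 and Mlxipl the exceptions.

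In the mevalonate arm, Hmgcs1, which condenses acetoacetyl-CoA and acetyl-CoA to HMG-CoA, had 99.8 CPM in HFD β cells and 76.4 CPM in CD β cells, a log2 ratio of 0.39 (0.33 to 0.44). Mvk, mevalonate kinase, had 15.2 and 11.8 CPM, and Mvd, the decarboxylase that yields isopentenyl diphosphate, had 7.85 and 5.67 CPM (log2 ratios of 0.35 and 0.47). Idi1, which isomerises that product, had 35.9 CPM in HFD and 26.2 CPM in CD, a log2 ratio of 0.45. All 4 were past the fold. Pmvk was nearly level, with 53.8 CPM in HFD and 50.9 CPM in CD, and Fdps, which builds farnesyl diphosphate, had 109 and 92.3 CPM, a log2 ratio of 0.24 (0.18 to 0.29).

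In the squalene arm the differences were smaller and none was past the fold. Sqle had 143 CPM in HFD and 118 CPM in CD (log2 ratio 0.28), Fdft1, squalene synthase, had 51.2 and 44.8 CPM (0.19), and Lss, which closes the lanosterol rings, had 18.6 and 16.1 CPM (0.21). All 3 intervals lay above 1. The steps from lanosterol to cholesterol held the widest spread of the branch. Hsd17b7, a 3-ketosteroid reductase, had 8.42 CPM in HFD and 4.30 CPM in CD, a log2 ratio of 0.97 (0.74 to 1.20) on 444 and 246 UMIs, of which free RNA was expected to give 0.917 CPM in HFD and 2.52 CPM in CD. Tm7sf2, a sterol C14 reductase, had 6.16 and 3.34 CPM (0.88), but it overlaps Vps51 on the same strand, so its reads may be divided between them, and free RNA alone was expected to give 4.58 CPM in HFD and 0.42 CPM in CD. With free RNA subtracted, its log2 ratio turned to -0.84, and that of Hsd17b7 was 2.13. Msmo1 had 179 CPM in HFD and 122 CPM in CD, a log2 ratio of 0.55 (0.51 to 0.60). Sc5d, which introduces a ring double bond, had 39.2 and 28.4 CPM (0.46), and Nsdhl, a sterol decarboxylase, had 11.1 and 8.88 CPM (0.32). These 5 genes were past the fold. Cyp51, lanosterol demethylase, had 59.0 CPM in HFD and 49.5 CPM in CD (0.25), Dhcr7, which makes cholesterol from 7-dehydrocholesterol, had 16.3 and 13.7 CPM (0.25), and the isomerase gene Ebp was level at 56.2 and 56.0 CPM (0.01).

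Fdps, Acly, Me1, Acaca, Elovl6, Scd2, Fads1 and Srebf1 also overlap annotated genes or microRNAs on the same strand, and Acsl3 overlaps Utp14b. For Acly, Scd2, Fads1 and Srebf1 the overlaps are with microRNAs alone. Whether any of these members share reads with what they overlap was not tested. Ebp overlaps no annotated gene, and whether it shares reads with the similarly named Ebpl was not tested. The genes of sterol control and transport were both higher in HFD. Insig1 had 165 CPM in HFD β cells, against 105.5 CPM in CD β cells, a ratio of 1.56 (1.51 to 1.61). Stard4 had 18.0 and 14.1 CPM, a log2 ratio of 0.35. Summed by arm, the log2 ratio was 0.29 for the mevalonate arm, 0.25 for the squalene arm, 0.39 for the lanosterol to cholesterol steps and 0.61 for control and transport.

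The fatty acid branch of β cells was higher in HFD by less, with a sum 1.15 times as high (1.13 to 1.16). Of its 15 members, 13 reached 50 UMIs, of which 5 were past the fold higher and 0 lower, with a median log2 ratio of 0.28. Over all genes 21.5% were higher and 14.2% lower, and 2 of the 5 were Scd2 and Thrsp, whose levels free RNA could supply. On all UMIs 3 were past the fold, with 16% of all genes higher. Acly, which cuts citrate to cytosolic acetyl-CoA, had 709 CPM in HFD and 584.5 CPM in CD (0.28), while Me1 had 15.9 CPM in HFD and 18.5 CPM in CD (-0.21). Acetyl-CoA carboxylase, Acaca, had 24.6 and 20.8 CPM (0.24), and fatty acid synthase, Fasn, had 34.7 CPM in HFD and 23.5 CPM in CD, a log2 ratio of 0.56 (0.46 to 0.66). Both genes of chain synthesis were thus higher, and Fasn was past the fold, with 0.33 once free RNA was subtracted. The elongases differed little, with 104 and 111 CPM for Elovl5 (-0.09) and 26.9 and 23.6 CPM for Elovl6 (0.19).

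Among desaturases, Scd2 had a log2 ratio of 0.77 (0.69 to 0.85) on levels that free RNA could supply, and Fads1, the Δ5 desaturase, had 20.7 CPM in HFD and 16.3 CPM in CD (0.35). Srebf1 had 29.9 and 24.1 CPM (0.31), just inside the fold, and Mlxipl 316.5 and 321 CPM (-0.02). Acsl4, which activates arachidonate, had 40.6 CPM in HFD and 31.3 CPM in CD (0.37), and Acsl3 was level (0.03). Thrsp had 6.13 CPM in HFD and 3.15 CPM in CD (0.96), and 0.44 with every cell counted alike. Endothelial markers were also higher in HFD β cells, and their part in this value was not tested. Scd1 and Fads2 were below the minimum.

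**Figure D3:**
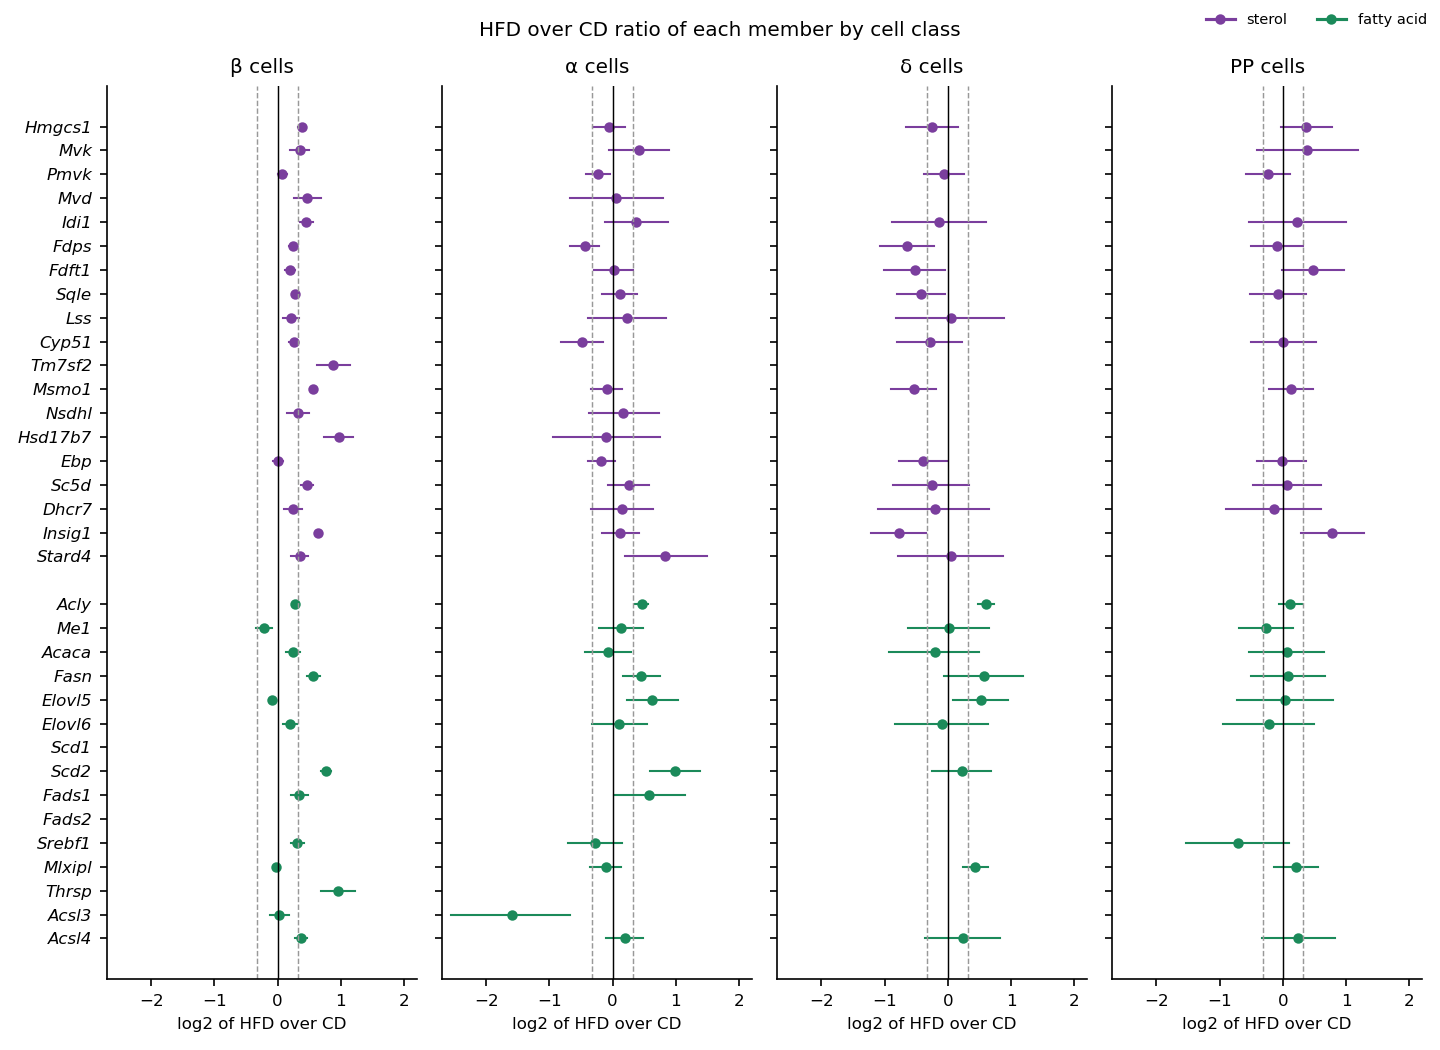
Log2 ratio of HFD over CD for each member with at least 50 UMIs over both libraries, in β, α, δ and PP cells, with 95% counting intervals; the dashed lines mark the fold limit. In β cells all 19 sterol points lie right of 0, in δ cells 12 of 14 lie left of it, and most intervals in α and PP cells span it.

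Other genes of these pathways, from lists that hold no member, were compared by the same rule, with 21.5% of all β cell genes higher and 14.2% lower as the background. The counts of higher genes in the lists given next lay near that share. A further list, of other sterol pathway genes, had 3 of 7 genes higher and 0 lower, and its genes are not reported here. Among 17 genes of sterol sensing and trafficking, 4 were higher and 1 lower. Srebf2 had 80.6 CPM in HFD and 59.9 CPM in CD (0.43), Mbtps2, a protease that releases SREBP, had 32.2 and 25.6 CPM (0.33), Gramd1b, a carrier of membrane cholesterol, had 9.62 and 6.10 CPM (0.66), Scarb1, the HDL receptor, had 11.4 and 7.88 CPM (0.54), and the lower gene Vldlr had 77.8 and 101 CPM (-0.38). Of 7 genes of sterol efflux and the oxysterol receptors, 2 were higher and 0 lower. These were Apoe, with 98.98 CPM in HFD and 76.2 CPM in CD (0.38), and Mylip, a ubiquitin ligase, with 7.57 and 5.88 CPM (0.37). Of 29 further fatty acid genes, 7 were higher and 1 lower, with a median log2 ratio of 0.05. The higher ones included Slc25a1, the citrate carrier that feeds Acly, with 127 CPM in HFD and 87.1 CPM in CD (0.54), Elovl7 with 16.9 and 7.57 CPM (1.16) and Hsd17b12, an elongation enzyme, with 159 and 101 CPM (0.66). The remaining higher ones were Elovl1, Elovl2, Acot1 and Idh1, with log2 ratios of 0.34, 0.52, 0.92 and 0.34. Dgat2, which makes triglyceride, was lower with 2.09 CPM in HFD and 4.63 CPM in CD (-1.15).

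In δ cells the branches parted. The sterol sum was 426 CPM in HFD and 542 CPM in CD, 0.785 times as high in HFD (0.724 to 0.851), while the fatty acid sum was 874 CPM in HFD and 631 CPM in CD, 1.39 times as high (1.30 to 1.48). Of the 14 sterol members with 50 UMIs or more, 6 were past the fold lower and 0 higher, and 12 had a ratio below 1. Over 9366 genes measured in δ cells 14.8% were lower and 22.2% higher, and the median log2 ratio was -0.27 for the sterol members and 0.02 for all genes. With TMM factors 17.1% of genes were higher and 20.1% lower, and on all UMIs 18.7% and 18.6%. The lower genes were Insig1, Fdps, Msmo1, Fdft1, Sqle and Ebp. Insig1 had 29.1 CPM in HFD δ cells and 49.5 CPM in CD δ cells, on 66 and 146 UMIs. Its log2 ratio was -0.77 (-1.21 to -0.34), and -1.41 with free RNA subtracted. The free RNA estimate was 17.94% of UMIs in HFD δ cells and 17.3% in CD δ cells. These are medians of single estimates that ran up to 205.3% and 228.7%, more than all UMIs of a cell. The subtracted value is therefore rough and adds no weight to the measured ratio. Fdps had 31.7 and 49.5 CPM (-0.64), and Msmo1 had 44.1 CPM in HFD and 64.1 CPM in CD (-0.54, from -0.90 to -0.18). All 3 were higher in HFD in β cells. With a fold of 1.5 the count of lower sterol members was 2, where 346 of all 9366 genes were lower.

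Of 9 fatty acid members measured in δ cells 4 were past the fold higher and 0 lower, where 22.2% of 9366 genes were higher and 14.8% lower. Acly had 488 CPM in HFD and 320 CPM in CD (0.61, from 0.48 to 0.74), and with 1107 and 944 UMIs it carried most of the sum. Mlxipl had 196 and 144 CPM (0.44), Elovl5 42.3 and 29.5 CPM (0.52), and Fasn 21.6 and 14.6 CPM (0.57, from -0.05 to 1.19). Summed endothelial markers were 308 CPM in HFD δ cells and 139 CPM in CD δ cells, and acinar markers were 202 and 306.5 CPM, and their part in these values was not tested.

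In α cells the sterol branch was close to level, with a sum of 344 CPM in HFD and 360 CPM in CD (0.956 times as high, 0.908 to 1.01). Among 18 sterol members measured, 3 were past the fold higher and 2 lower, where 16.3% of 11078 genes were higher and 18% lower. The higher ones were Stard4, with 7.09 and 3.99 CPM (0.83, from 0.20 to 1.49), and Mvk (10.8 and 8.10 CPM) and Idi1 (9.65 and 7.46 CPM), whose intervals included 1. With cells thinned to 1500 UMIs, the log2 ratio of Mvk turned to -0.41. With TMM factors 19.9% of genes were higher and 13.7% lower. The lower ones were Fdps, with 31.2 CPM in HFD and 42.4 CPM in CD (-0.44), and Cyp51, with 15.1 and 21.1 CPM (-0.48). The fatty acid sum of α cells was 405 CPM in HFD and 322 CPM in CD, 1.26 times as high (1.20 to 1.32). Summed erythroid markers were 564 CPM in HFD α cells and 7.84 CPM in CD α cells, endothelial markers 205 and 74.7 CPM, and acinar markers 28.7 and 143 CPM, and their part in these values was not tested. Of 12 fatty acid members 5 were past the fold higher and 1 lower. Acly had 218 CPM in HFD and 159 CPM in CD (0.46), Fasn had 28.4 and 20.7 CPM (0.45), Elovl5 had 15.8 and 10.3 CPM (0.62), Fads1 had 8.42 and 5.66 CPM (0.57), and Scd2 had 19 and 9.64 CPM (0.98), against 18.88 and 16.61 CPM expected from free RNA. Acsl3 was lower, with 1.54 CPM in HFD and 4.63 CPM in CD (-1.59) on 15 and 36 UMIs, against 2.16 and 2.76 CPM expected from free RNA, and it overlaps Utp14b on the same strand.

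In PP cells, the smallest class, the sterol sum was 481 CPM in HFD and 454 CPM in CD and the fatty acid sum 433 and 419 CPM, and both ratios had intervals that included 1. Of 13 sterol members 4 were past the fold higher and 0 lower, and of 9 fatty acid members 0 were higher and 1 lower, where 14.1% of 8732 genes were higher and 17.8% lower. On all UMIs these shares were 11.4% and 22.4%. Insig1 was the 1 member among these whose interval was clear of 1, with 40.5 CPM in HFD and 23.6 CPM in CD, a ratio of 1.72 (1.22 to 2.42) on 100 and 56 UMIs. Hmgcs1 (50.2 and 38.8 CPM), Mvk (13.8 and 10.5 CPM) and Fdft1 (35.6 and 25.7 CPM) were the other higher genes, and Srebf1, with 9.30 and 15.2 CPM on 23 and 36 UMIs, was the lower one, although with cells thinned to 1500 UMIs its log2 ratio turned to 1.28. Among cells past no hormone threshold the endothelial-like cells were the largest named group. Their sterol sum was 332 CPM in HFD and 331 CPM in CD. Stard4 was higher there, at 52.1 CPM in HFD and 31.0 CPM in CD (0.75, from 0.28 to 1.24), as was Acly at 116 and 76.6 CPM (0.60), and Thrsp was lower, at 524 and 669 CPM (-0.35, from -0.47 to -0.23). The macrophage-like and mesenchymal-like cells, 215 and 202 in HFD and 154 and 138 in CD, had at most 1 member of each branch with 50 UMIs.

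Among single β cells some sterol members varied together, though weakly. To compare cells of unequal depth, each β cell was thinned at random to 3000 UMIs outside hormone and mitochondrial genes, which left 6870 HFD and 5792 CD cells and left out 563 and 723 shallower ones. A thinned cell held a mean of 3.30 sterol UMIs in HFD (SD 2.41) and 2.56 in CD, and 7.06% of HFD and 11.2% of CD cells held 0. The variance of the sterol sum was 1.55 times the sum of its members' variances in HFD and 1.495 times in CD, where genes that vary independently would give a ratio near 1. For the fatty acid sum the ratio was 1.05 in HFD and 1.02 in CD. Acly and Mlxipl held most of that sum, with means of 2.12 and 0.965 of 4.21 UMIs per HFD cell. The ratios of the branches are therefore not like measures of shared variation.

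**Figure D4:**
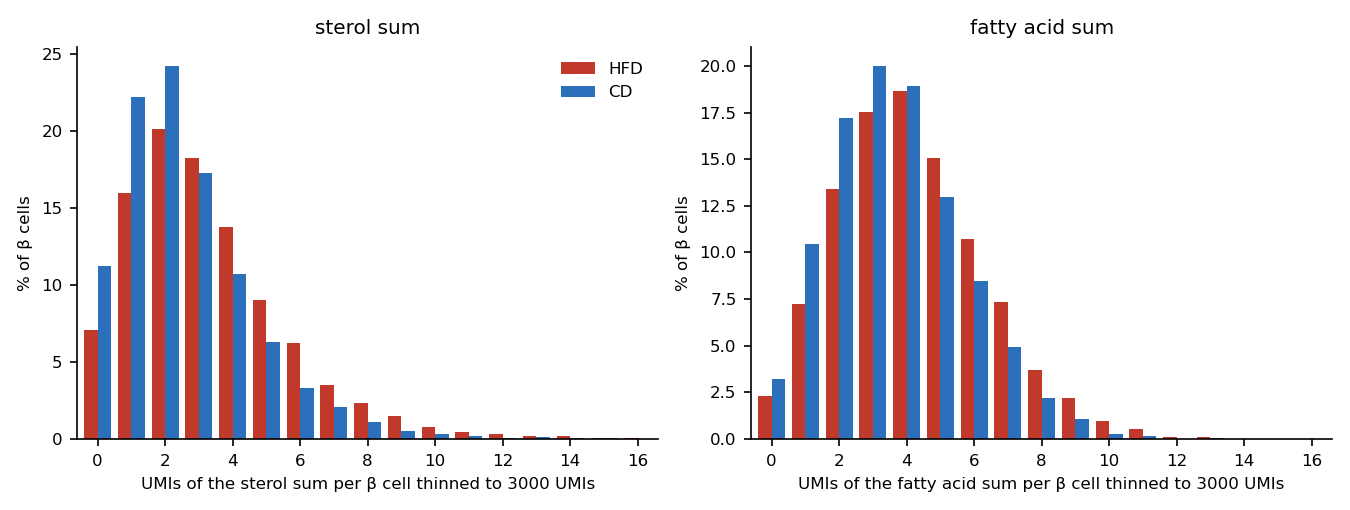
Percent of β cells by the number of sterol (left) or fatty acid (right) UMIs per cell after thinning to 3000 UMIs, with HFD as the left and CD as the right bar of each pair. In HFD fewer cells hold 0 sterol UMIs (7.06% against 11.2%), and the upper tail is longer.

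Each gene was then correlated across cells with the sum of the sterol members, a member being left out of its own sum. These correlations describe cells of 1 library that share its preparation and free RNA, so they carry no p-value. Of 16 sterol members with at least 200 UMIs in thinned HFD cells 6 had a Spearman correlation of 0.1 or more, and in CD it was 5 of 15, against 0.0544% of 9184 other genes in HFD and 0.0116% of 8627 in CD. The median was 0.07 in HFD and 0.06 in CD for sterol members, and 0.0015 and 0.0010 for other genes. Msmo1 (0.18 in HFD and 0.12 in CD), Insig1 (0.17 and 0.15), Hmgcs1 (0.16 and 0.10), Fdps (0.14 and 0.12) and Idi1 (0.13 and 0.11) were past 0.1 in both libraries, and Cyp51 was past it in HFD (0.10 and 0.09). At the low end were Ebp (0.008 and 0.02), Sc5d (0.02 and 0.05), Lss (0.03 and 0.04) and Pmvk (0.04 and 0.03). By the lower of both libraries, the closest pair was Msmo1 and Insig1, at 0.12 in HFD and 0.10 in CD. In the cells that allowed thinning to 6000 UMIs the sterol median was 0.10 in HFD and 0.08 in CD.

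**Figure D5:**
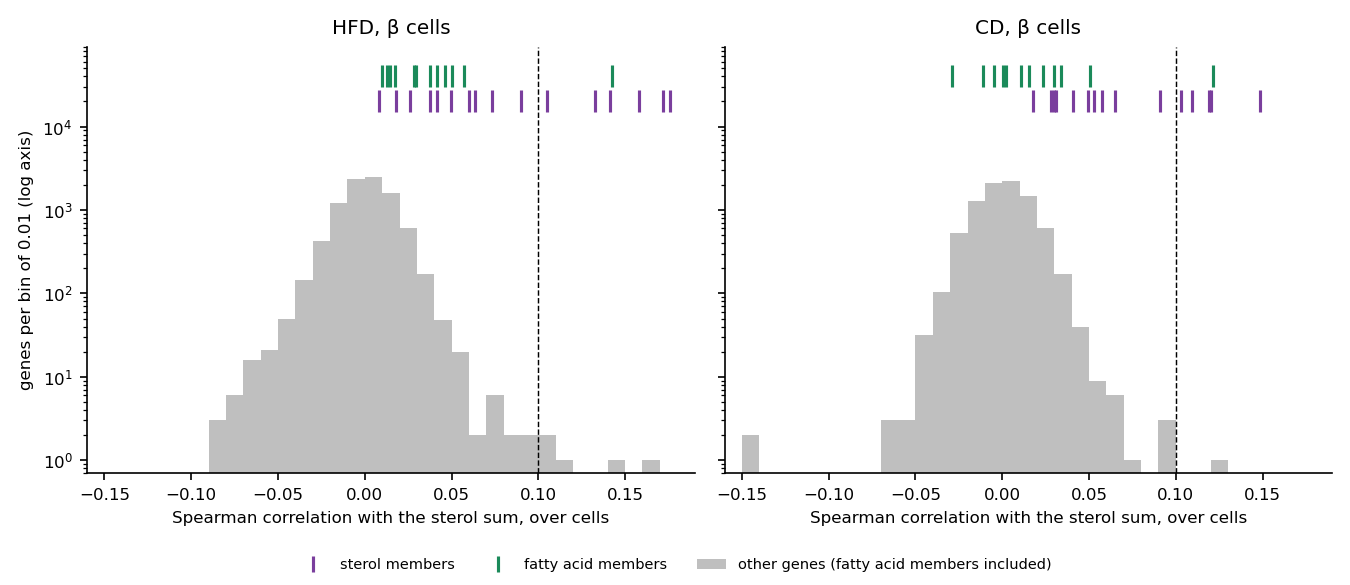
Spearman correlation of genes with the sum of the sterol members over thinned β cells, HFD left and CD right. Grey bars count other genes on a log axis, ticks mark sterol and fatty acid members, and the dashed line marks 0.1; 6 sterol ticks in HFD and 5 in CD lie past it, with 1 fatty acid tick (Scd2) in each.

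Of the fatty acid members only Scd2 was past 0.1, with 0.14 in HFD and 0.12 in CD. With another thinning seed its CD value was 0.099, under the limit. Its β cell level lay below the level expected from free RNA in both libraries. By the lower of its values in the 2 libraries it was highest of 8540 genes outside the sterol branch. Among the genes next in that order were Cpe, which trims prohormones (0.17 in HFD and 0.09 in CD), Rgs2, a regulator of G protein signalling (0.10 and 0.07), Srebf2 (0.07 and 0.06), Pcsk2, the proinsulin convertase (0.08 and 0.06), Peg3 (0.10 and 0.06), Spock2 (0.06 and 0.05) and Pam, which amidates peptide hormones (0.08 and 0.05). Of these, Srebf2 is on the list of sterol sensing and trafficking. Correlations of this size in sparse counts are given as a description only. Acly (0.04 in HFD and -0.01 in CD), Fasn (0.05 and 0.02), Srebf1 (0.02 in both) and Mlxipl (0.04 and 0.002) had lower values. In HFD Fasn and Acly lay above the 99th percentile of other genes, at 0.0393, and with another thinning seed they had 0.037 and 0.024. Acsl3 (0.06 in HFD and 0.05 in CD) lay above that percentile in both libraries (0.0371 in CD), on a level that free RNA could supply. Elovl6 (0.05 and 0.01) lay above it in HFD. The sterol and fatty acid sums correlated at 0.10 in HFD and 0.03 in CD. With Acly and Mlxipl left out of the fatty acid sum these values were 0.12 and 0.06. The sterol sum also correlated with the insulin share of the cell, at 0.11 in HFD and 0.06 in CD, with its mitochondrial share at -0.03 in HFD and -0.08 in CD, and with the sum of ER folding and stress genes at 0.006 in HFD and 0.10 in CD, and the part of these measures in the correlations among members was not tested.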

How the data were processed

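Single-cell RNA of 2 libraries (1 HFD, 1 CD) was analysed. The deposited values are raw UMI counts per gene and barcode, made by the authors with Cell Ranger 6.0.1 on mm10, per the submitters' processing notes; the file headers carry software version 3.0.2. All deposited barcodes were read, and cells with at least 1500 UMIs, 500 genes and at most 15% mitochondrial UMIs were kept. Classes were set by hormone share of UMIs (β 30%, α 10%, δ 3%, PP 20%); cells past several thresholds were left out. Other cells were named endothelial-like, macrophage-like or mesenchymal-like from at least 3 detected markers, by a scoring rule set after the data were seen. Doublets were scored (1164 HFD and 748 CD cells marked) and kept; removing them was an alternative. Free RNA was estimated from barcodes with 10 to 100 UMIs and from hormones foreign to each class.

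For each class the UMIs of a library were added up, and the libraries were compared as a ratio with an exact conditional 95% interval that covers counting error only; sampling of mice and library preparation are not covered. There is no test, since each diet has 1 library. β cells were thinned to 3000 UMIs with seed 11, and genes with at least 200 UMIs were correlated. All members were accounted for; other genes were named if they were on a pathway list and past the fold in β cells, or among the 10 non-members with the highest correlation; some genes that met this rule are not reported here. The members and lists were chosen with earlier results of these data known. Alternatives covered scaling (all UMIs, or the TMM factors of edgeR 4.0.16, run with R 4.3.3), minimums, thresholds, thinning, free RNA, doublets, acinar share and transcript length (GENCODE). Python 3.11.15, numpy 2.4.6, scipy 1.17.1, pandas 2.3.3 and scanpy 1.11.5 were used. Scripts were tested on simulated data.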

Additional observations from a re-analysis of the deposited data

Results flagged for a closer look

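Of 34 results compared across classes, 9 had intervals on opposite sides of 1 in 2 classes. The share of all genes that meet this rule was not computed, so the count is not a result about these genes. Over all 13974 genes in β cells, 5267 had an interval above 1 and 4140 below. In δ cells these were 1413 and 1196 of 9366, and in α cells 1932 and 2498 of 11078. With 1 library per diet none of these differences was tested. Each is given as the difference of the log2 ratios of HFD over CD. The sterol sum differed by 0.714 between β (0.37) and δ cells (-0.35). Insig1 differed by 1.41 between β (0.64) and δ cells (-0.77) and by 1.54 between PP (0.78) and δ cells. Msmo1 differed by 1.09 between β (0.55) and δ cells (-0.54), Fdft1 by 0.714 (0.19 and -0.52) and Sqle by 0.702 (0.28 and -0.42). Fdps differed by 0.880 between β (0.24) and δ cells (-0.64), and by 0.681 between β and α cells (-0.44). Against α cells, Cyp51 differed by 0.734 (0.25 in β, -0.48 in α) and Pmvk by 0.31 (0.08 and -0.23). Elovl5 was higher in HFD α (0.62) and δ cells (0.52) and lower in β cells (-0.09), differences of 0.709 and 0.609.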

How the results depend on the processing

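Of the list medians and the counts by class order or correlation, 145 recomputed values stayed in range and 3 moved. For a count the range was 1.5 times. For a list median it ran from the median of its members' lower interval limits to the median of their upper limits. That range describes a typical single gene and is wide in small classes. The α and PP medians given below that changed sign are counted as staying. Per 1000000 of all UMIs the fatty acid median in β cells was 0.19, and β cells were highest for 0 sterol and 0 fatty acid members. Of the counts of members past the fold, 57 stayed within 1.5 times and 7 moved. In β cells these were 3 sterol and 2 fatty acid members at a fold of 1.5, and 7 and 3 on all UMIs. In δ cells they were 2 lower sterol members and 1 higher fatty acid member at a fold of 1.5, and 2 higher fatty acid members with 200 or more UMIs. At a fold of 1.5, 1341 of all 13974 genes were higher in β cells. In δ cells 346 of all 9366 genes were lower and 750 higher at that fold. Of single genes, 590 values stayed within their interval, 33 moved and 3 reversed. The reversed ones were Tm7sf2 in β cells with free RNA subtracted (-0.84), and, with cells thinned to 1500 UMIs, Mvk in α cells (-0.41) and Srebf1 in PP cells (1.28). The cause was not tested. Scd2 and Thrsp gave no β cell value once free RNA was subtracted. The β cell median ranged over 0.26 to 0.45 for sterol members, and the δ cell median over -0.42 to -0.23, with the same sign under every setting run. The α sterol median of 0.08 was -0.07 with 200 or more UMIs and -0.05 with thinned cells. The PP sterol median of 0.06 was -0.02 and -0.24 under the same settings, and the PP fatty acid median ranged over -0.07 to 0.23. Acinar share under 0.1%, a minimum of 3000 UMIs outside hormone and mitochondrial genes, UMIs per cell and thinned levels were chosen after seeing the data. No paired analysis was possible because each diet has 1 library. Members under 50 UMIs in a class limit the δ, PP and other classes most.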
